A study of Mus musculus with 21 samples.

Results

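Disruption of *Cbfa2t3* (sgCbfa2t3) was compared directly with disruption of its paralog *Cbfa2t2* (sgCbfa2t2), without passing through the control. The comparison covered every gene with a mean above 1 CPM (counts scaled to a common library total) over the 6 libraries of these conditions, which was 11509 of 55421 genes, 10152 of them protein-coding. The cells were a lymphoid progenitor (LP) line of strain C57BL6/J that lacks *Ebf1*, a transcription factor needed for B-cell commitment, and that was grown on OP9 stromal cells with SCF, IL-7 and Flt3L and no Notch ligand. All libraries compared here shared the *Ebf1* deletion and a Cas9-GFP transgene delivered by retrovirus, and cells that also carried the hNGFR marker of the sgRNA vector were sorted 5 days after sgRNA introduction. Each condition had 3 QuantSeq libraries, which read the 3′ ends of mRNAs, and sgControl (an sgRNA against luciferase) had another 3. A pool of 2 sgRNA vectors was used per gene, so each library was a mixed population of edited cells of 1 line and not a clone.

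The ETO family of corepressors has 3 members, Cbfa2t2 (also Mtgr1), Cbfa2t3 (also Mtg16 or Eto2) and Runx1t1 (Eto, the fusion partner of Runx1 in acute myeloid leukemia). These proteins do not bind DNA by themselves. They are brought to enhancers by E proteins, Gfi1 or the Tal1/Lyl1, Lmo2 and Ldb1 complex, and they recruit Ncor and Sin3 corepressors with histone deacetylases. Cbfa2t3 is best known as the repressive subunit of that complex in erythroid and stem cells, and Cbfa2t2 as a partner of Prdm14 in germ cells.

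The genes that differed can be set beside the Cbfa2t3 ChIP-seq peaks of the same cell line, and 2 peak centers are shown, at a targeted gene and at a neighbour of *Tle6*. Each line is the 200-base window on the center of the strongest Cbfa2t3 peak assigned to that gene, read from the + strand of GRCm38.p6 (mm10). Capitals mark the Runx core TGTGGT and the E-box CAGNTG (the site of E proteins), on either strand, and no marked motifs overlapped. The window at *Cbfa2t3* is chr8:122700664-122700863, upstream of the gene. The window at *Tle2* is chr10:81580195-81580394, over the sixth exon.
Cbfa2t3: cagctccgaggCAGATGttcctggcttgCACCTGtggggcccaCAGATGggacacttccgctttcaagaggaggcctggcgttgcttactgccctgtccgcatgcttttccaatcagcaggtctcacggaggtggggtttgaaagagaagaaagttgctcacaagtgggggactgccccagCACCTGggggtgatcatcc
Tle2: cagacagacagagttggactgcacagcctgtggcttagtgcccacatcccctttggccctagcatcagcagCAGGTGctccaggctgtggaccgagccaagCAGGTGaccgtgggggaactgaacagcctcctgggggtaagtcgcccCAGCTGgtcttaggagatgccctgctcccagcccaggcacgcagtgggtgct
The windows at *Cbfa2t3* and *Tle2* held 4 and 3 E-boxes and no Runx core. Over the centers of 6070 Cbfa2t3 peaks, 43.7% held the Runx core and 83.2% the E-box, beside 16% and 42.3% of 12140 windows of the same length 5 kb to either side. The GATA core AGATAA was in neither of these windows and in 6.47% of peak centers, beside 9.84% of the flanking windows.

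The targeted genes were examined first. *Cbfa2t3* mRNA stood at 232, 222 and 266 CPM in the libraries labelled sgCbfa2t2 and at 340, 344 and 364 CPM in those labelled sgCbfa2t3, with 172 to 210 CPM in sgControl. The mRNA was thus higher, not lower, under its own sgRNA, and all 3 sgCbfa2t3 libraries lay above the other 6. The log2 difference (sgCbfa2t3 minus sgCbfa2t2, on the log2(CPM + 1) scale, as are all differences below) was 0.55 (SE 0.10, n = 3 against 3, limma adjusted p = 0.00438, and 0.0877 without sgCbfa2t2 replicate 2). An exact permutation test (two-sided) gave p = 0.1, which is as low as 3 libraries against 3 can go. *Cbfa2t2* mRNA stood at 25.5, 23.9 and 16.4 CPM in the libraries labelled sgCbfa2t2, at 20.4, 10.8 and 18.3 CPM in those labelled sgCbfa2t3 and at 11.0, 12.2 and 12.3 CPM in sgControl. The conditions overlapped, and the difference of −0.41 (95% interval −0.99 to 0.17, limma adjusted p = 0.913, exact permutation p = 0.3) did not pass the test. It ran from −0.60 without sgCbfa2t2 replicate 3 to −0.15 without sgCbfa2t3 replicate 2. *Runx1t1* was at 0 in all 15 QuantSeq libraries, where 3 reads would be worth 1.43 to 1.76 CPM. The transcript levels therefore do not show a loss of mRNA under either label. A 3′ tag does not read the edited site, so protein loss cannot be checked in these values, and conditions are named by their labels throughout. The study also immunoblotted Cbfa2t3 protein in sgRNA-treated LPs, with no Cbfa2t2 blot named in the sources used here, and blots were not analysed here. *Ebf1*, deleted in the line, had tags at 249 to 271 CPM in sgCbfa2t2, 251 to 289 CPM in sgCbfa2t3 and 305 to 366 CPM in sgControl (difference between the conditions 0.01, limma adjusted p = 0.996). A 3′ tag outside the deleted part does not check the deletion, and the position of that part is not given in the sources used here.

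The 6 libraries held 1751378 to 2095447 reads. Pairs of libraries from the 2 conditions were about as alike as replicates of 1 condition. Pearson's r over the 11509 genes was 0.957 to 0.963 within a condition and 0.956 to 0.961 between conditions. The chi-square of the reads per degree of freedom was 2.39 to 3.60 within and 2.56 to 4.73 between conditions, with the highest value for sgCbfa2t2 replicate 2 against sgCbfa2t3 replicate 3. No pair came as close as 1, the value for counting noise alone, so no library was a copy of another.

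**Figure D1:**
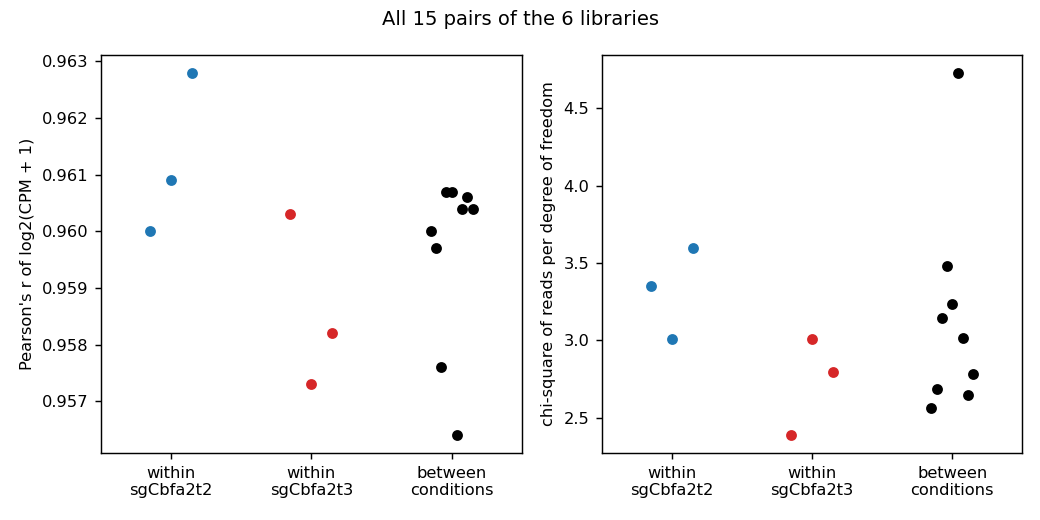
Pearson's r of log2(CPM + 1) (left) and chi-square of the reads per degree of freedom (right) for each of the 15 pairs of libraries, 3 pairs within each condition and 9 between. The between-condition pairs, at r of 0.956 to 0.961, spread over much of the range of the within-condition pairs, at 0.957 to 0.963.

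Few genes separated the 2 conditions. In the limma fit 11 genes, or 0.0956% of those tested, had a Benjamini-Hochberg adjusted p under 0.05, of which 5 were higher (0.0434%) and 6 lower (0.0521%) in sgCbfa2t3. Those higher were *E2f2*, *Cbfa2t3*, *Tle6*, *Itga4* and *Vegfa*, and those lower were *H19*, *Jchain*, *Ly6d*, *Gsn*, *S100a4* and *Ifitm1*. The 3 libraries of the conditions did not overlap for 10 of the 11, *Jchain* being the exception, beside 10.8% of all genes tested. At an unadjusted p under 0.05 there were 682 genes (5.93%), 272 higher (2.36%) and 410 lower (3.56%), where 575.5 would come from the threshold alone. The count of 11 was lower without any one library. It was 2 without sgCbfa2t2 replicate 2, 4 without sgCbfa2t2 replicate 3, 4 without sgCbfa2t3 replicate 1 and 7 without sgCbfa2t3 replicate 3. Without sgCbfa2t2 replicate 1 it was 9, and without sgCbfa2t3 replicate 2 it was 8. *E2f2* kept an adjusted p under 0.05 without any one of the 6 libraries. The edgeR quasi-likelihood test on the recovered reads called the same 11 genes, and DESeq2 called 7 of them, without *Gsn*, *Jchain*, *Ly6d* and *Vegfa*. A test of each gene alone on unlogged values called 0 genes (627 at an unadjusted p under 0.05), with an adjusted p of 0.652 for *E2f2*.

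**Figure D2:**
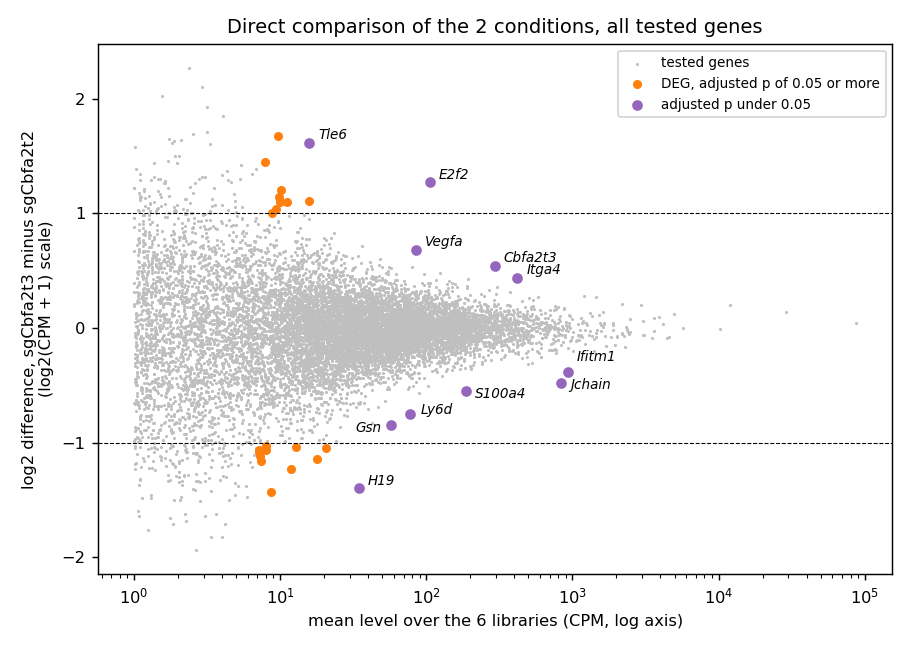
Log2 difference (sgCbfa2t3 minus sgCbfa2t2, log2(CPM + 1) scale) against the mean level over the 6 libraries (CPM, log axis) for 11509 genes. The 11 named points have an adjusted p under 0.05, and the other called points (orange) are DEGs with an adjusted p of 0.158 or more, nearly all of which sit near 10 CPM at the lower bound of the DEG rule.

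The precision of the comparison can be stated over all genes, called or not. Of 8329 genes with a mean above 10 CPM in either condition, 7534 (90.5%) had a 95% interval of the difference that lay wholly within −1 to 1, and of 2089 genes above 100 CPM, 2088 did. The median standard error was 0.197 above 10 CPM and 0.119 above 100 CPM. A difference beyond 1 in either direction on the log2(CPM + 1) scale was therefore outside the interval for most genes at these levels. Near 10 CPM a 2-fold change in CPM falls short of 1 on this scale, so the intervals do not exclude it there.

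*E2f2*, an E2F transcription factor that drives entry into S phase, showed the clearest difference. It stood at 60.7, 53.4 and 71.5 CPM in sgCbfa2t2, at 153, 143 and 153 CPM in sgCbfa2t3 and at 76.1, 74.1 and 83.3 CPM in sgControl. The sgCbfa2t3 libraries lay far above all others, and the sgCbfa2t2 libraries lay below sgControl. The ratio of the means was 2.42 and the log2 difference was 1.27 (SE 0.14, n = 3 against 3, limma adjusted p = 5.58e-09, edgeR adjusted p = 1.88e-08). Leaving out each library gave differences of 1.17 to 1.38. The gene (chr4:136172394-136196057, + strand) held 1 Cbfa2t3 peak, in the first intron, whose score of 360.6 ranked 27 of 6077. A Zbtb1 peak with a score of 423.2, ranked 43 of 5898, overlapped it by 272 bp.

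Of the other E2F genes, named after their values were seen, none had an adjusted p under 0.05. *E2f4*, a mostly repressive member, stood at 16.2 to 20.3 CPM in sgCbfa2t2 and 24.9 to 32.5 CPM in sgCbfa2t3 (difference 0.61, limma unadjusted p = 0.0183, adjusted p = 0.739). The atypical repressors *E2f7* (difference 0.60) and *E2f8* (difference 0.44) had unadjusted p of 0.0185 and 0.0232 and adjusted p of 0.739 and 0.772 in limma. Without sgCbfa2t2 replicate 1 the difference of *E2f8* was 0.23. The differences of *E2f1*, *E2f3*, *E2f5* and *E2f6* were −0.12, 0.0011, −0.19 and −0.28.

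*Tle6* and *Tle2* code for Groucho-family proteins, which are corepressors for Tcf, Runx and Hes factors in the full-length members. *Tle6* (chr10:81590904-81601073, − strand) stood at 7.45, 8.59 and 5.80 CPM in sgCbfa2t2, 23.6, 21.1 and 28.3 CPM in sgCbfa2t3 and 6.45 to 13.9 CPM in sgControl. Its levels in sgCbfa2t3 were above those of every other library shown, and the difference was 1.62 (SE 0.33, n = 3 against 3, limma adjusted p = 0.0138). It did not pass with all 15 libraries in the fit, nor without sgCbfa2t2 replicate 3, sgCbfa2t3 replicate 1 or sgCbfa2t3 replicate 3 (adjusted p up to 0.127). *Tle2* (chr10:81574561-81590845, + strand) stood at 7.98, 8.59 and 1.93 CPM in sgCbfa2t2, 16.6, 6.28 and 18.3 CPM in sgCbfa2t3 and 1.74 to 4.63 CPM in sgControl. The conditions overlapped for *Tle2*, whose difference was 1.1 with a limma adjusted p of 0.658, and 0.54 without sgCbfa2t2 replicate 3. These genes run toward each other and their annotated 3′ ends are 58 bp apart. The setting of strand in the authors' counting is not given in the sources used here, so reads near the shared end could be assigned to either gene. A Cbfa2t3 peak (score 109.7, rank 434) lay over the sixth exon of *Tle2*, 5.7 kb from its start. *Tle5* (*Aes*), the next gene on this stretch of chromosome 10, had 180 to 204 CPM in sgCbfa2t2 and 180 to 240 CPM in sgCbfa2t3, a difference of 0.20 with a limma adjusted p of 0.895. The other members, *Tle1*, *Tle3* and *Tle4*, had adjusted p of 0.864, 0.969 and 1.00 in limma. All Tle genes other than *Tle6* were named after their values were seen.

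**Figure D3:**
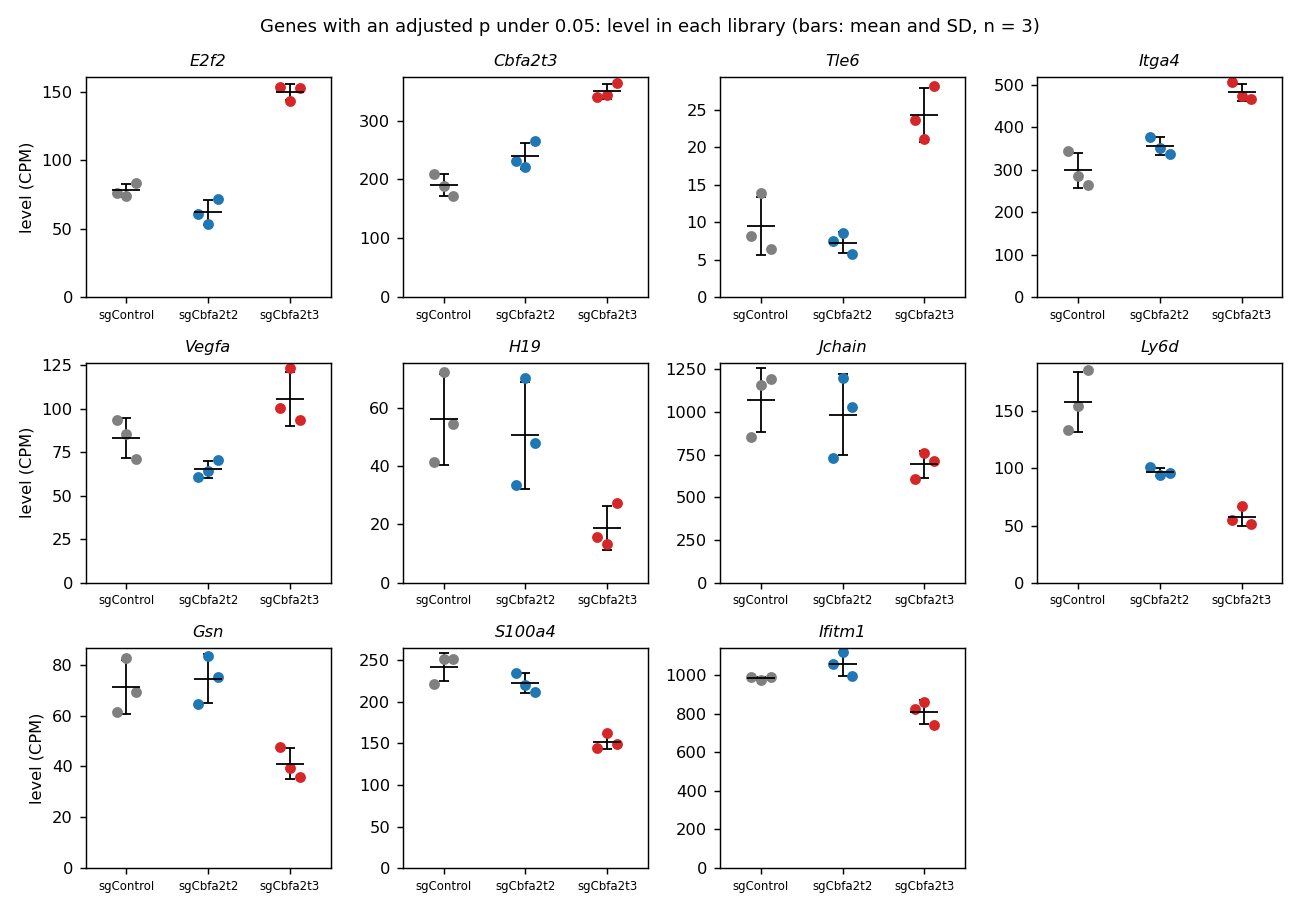
Level (CPM) of the 11 genes with an adjusted p under 0.05 in each sgControl (grey), sgCbfa2t2 (blue) and sgCbfa2t3 (red) library, with the mean and SD of 3 libraries. The red points lie apart from the blue in 10 panels and overlap in that of *Jchain*, and the grey points lie nearer to the blue in 10 of the 11 panels, the exception being *Vegfa*.

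*Itga4* and *Vegfa* were the remaining genes that were higher. *Itga4*, the α4 integrin subunit that anchors progenitors to stroma, stood at 378, 352 and 338 CPM in sgCbfa2t2 and 506, 474 and 468 CPM in sgCbfa2t3, with 265 to 344 CPM in sgControl. The difference was 0.44 (SE 0.09, limma adjusted p = 0.0147). *Vegfa*, the endothelial growth factor, stood at 60.7, 63.9 and 70.5 CPM in sgCbfa2t2 and 100, 123 and 93.6 CPM in sgCbfa2t3. The difference was 0.69 (SE 0.15, limma adjusted p = 0.0244), and sgControl, at 71.0 to 93.5 CPM, lay between the conditions. Of the 6 libraries, leaving out any one of 4 lost the call of *Itga4* (adjusted p up to 0.218, the exceptions being sgCbfa2t2 replicate 1 and sgCbfa2t3 replicate 3), and any one of 5 that of *Vegfa* (up to 0.437, the exception being sgCbfa2t3 replicate 3).

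Among the genes that were lower in sgCbfa2t3, *Ly6d* is a surface marker of lymphoid progenitors that have turned toward the B lineage. It stood at 101, 94.5 and 95.6 CPM in sgCbfa2t2, 55.2, 67.4 and 51.0 CPM in sgCbfa2t3 and 134 to 186 CPM in sgControl. Its order was sgControl, sgCbfa2t2, sgCbfa2t3, with no overlap between neighbours. The log2 difference was −0.75 (SE 0.16, n = 3 against 3, limma adjusted p = 0.0147), and the call was lost without any one of 5 libraries, sgCbfa2t3 replicate 2 being the exception, with adjusted p up to 0.183. Of the 12 B-lineage genes tested, of 20 listed, 6 had a difference above 0 and 6 below, with a median of −0.07. *Dntt*, the polymerase that adds N nucleotides, lay on the higher side at 71.3 to 109 CPM in sgCbfa2t2 and 95.9 to 131 CPM in sgCbfa2t3 (difference 0.39, limma unadjusted p = 0.00981, adjusted p = 0.640), with a difference of 0.25 without sgCbfa2t2 replicate 1. In bulk libraries, fewer cells that express a gene and less RNA per cell cannot be told apart.

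*Gsn* (gelsolin, which severs actin filaments) stood at 64.4, 83.5 and 75.4 CPM in sgCbfa2t2 and 47.7, 39.4 and 36.0 CPM in sgCbfa2t3, a difference of −0.84 (SE 0.18, limma adjusted p = 0.0147). *S100a4*, a calcium-binding protein tied to cell motility, stood at 235, 220 and 212 CPM in sgCbfa2t2 and 144, 163 and 150 CPM in sgCbfa2t3, a difference of −0.55 (SE 0.11, limma adjusted p = 0.0147). *Ifitm1*, an interferon-inducible membrane protein, stood at 1055, 1119 and 992 CPM in sgCbfa2t2 and 826, 862 and 740 CPM in sgCbfa2t3, a difference of −0.38 (SE 0.08, limma adjusted p = 0.0147). In each of these genes the conditions did not overlap and the sgControl mean was nearer to sgCbfa2t2. Without any one library the differences ran from −0.96 to −0.76 for *Gsn*, −0.59 to −0.50 for *S100a4* and −0.43 to −0.32 for *Ifitm1*. The calls were lost in most of those fits. That of *Gsn* was kept only without replicate 1 of either condition (adjusted p up to 0.311 without another library), that of *S100a4* only without sgCbfa2t3 replicate 2 (up to 0.236) and that of *Ifitm1* only without sgCbfa2t2 replicate 3 or sgCbfa2t3 replicate 2 (up to 0.234). *Ifitm1* has close relatives in a gene cluster, and *Cbfa2t3* and *Itga4* overlap annotated genes on the opposite strand (*Cerkl* for *Itga4*). *Gsn*, *S100a4* and *Cbfa2t3* each also overlap an annotated gene on their own strand. The counts of all these genes are uncertain to the extent that reads could be shared.

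*H19*, an imprinted non-coding RNA that also hosts a microRNA, varied more among replicates. It stood at 33.5, 70.2 and 47.8 CPM in sgCbfa2t2, 15.5, 13.1 and 27.1 CPM in sgCbfa2t3 and 41.2 to 72.3 CPM in sgControl, a difference of −1.40 (SE 0.25, limma adjusted p = 0.00245, and 0.26 without sgCbfa2t2 replicate 2). *Jchain*, which joins polymeric immunoglobulins and is transcribed in early lymphoid progenitors, stood at 728, 1197 and 1028 CPM in sgCbfa2t2 and 606, 760 and 714 CPM in sgCbfa2t3. The lowest sgCbfa2t2 library lay below the highest sgCbfa2t3 library. The difference of −0.48 passed in limma (SE 0.10, adjusted p = 0.0147) because the fit takes most of the spread of a gene from other genes of like level, with 64 prior against 4 residual degrees of freedom. With a robust estimate of the spread, chosen after seeing the data, the adjusted p of *Jchain* was 0.856 and the other 10 genes stayed under 0.05. Its call was also lost without sgCbfa2t2 replicate 2, sgCbfa2t2 replicate 3 or sgCbfa2t3 replicate 1 (adjusted p up to 0.659).

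The thresholds that the study set for DEGs (unadjusted p under 0.05, absolute log2 difference above 1 and mean above 10 CPM in either condition), applied here to the limma p, were met by 23 genes, 0.276% of the 8329 above 10 CPM, with 11 higher (0.132%) and 12 lower (0.144%) in sgCbfa2t3. Only *E2f2*, *Tle6* and *H19* also had an adjusted p under 0.05, and the others had adjusted p of 0.158 to 0.739. Of the 23, 20 were protein-coding, and 20 did not overlap between conditions, which the rule itself favors. Leaving out any one library moved the count to between 42 and 52. With a test on unlogged values the same thresholds gave 18 genes, of which 10 were among the 23.

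Among the DEGs with higher values in sgCbfa2t3 was *Slc16a5*, a monocarboxylate transporter family gene, at 2.13 to 5.25 CPM in sgCbfa2t2 and 9.97 to 13.9 CPM in sgCbfa2t3 (difference 1.45, limma adjusted p = 0.416). *Leprot*, which shares its first exons with the leptin receptor gene, had 5.31 to 12.8 CPM and 20.9 to 22.3 CPM (difference 1.11). The sgControl libraries, at 10.6 to 22.0 CPM, reached into both ranges of *Leprot*. *Susd3*, *Ajap1* (an adherens junction protein), *Kcnk5* (a potassium channel) and *Klc2* (a kinesin light chain) had differences of 1.20, 1.14, 1.04 and 1.00. The difference of *Susd3* was 0.69 without sgCbfa2t2 replicate 1, and that of *Klc2* was 0.65 without sgCbfa2t2 replicate 3.

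Lower values in sgCbfa2t3 were found for *Slc30a4*, a zinc transporter, at 23.7 to 26.7 CPM in sgCbfa2t2 and 8.86 to 13.9 CPM in sgCbfa2t3 (difference −1.15, limma adjusted p = 0.238). *Cdh1* (E-cadherin) had 19.1 to 37.7 CPM and 7.42 to 18.3 CPM, with 36.9 to 38.9 CPM in sgControl (difference −1.05, limma adjusted p = 0.408). The other named genes of this kind were *Rnft1* and *Rnf24*, both RING-finger proteins, *Slc26a11* (an anion transporter), *Slc2a6* (a sugar transporter), *Gem* (a small GTPase), *Ppm1h* (a phosphatase) and *Nars2* (a mitochondrial tRNA synthetase), with differences of −1.23 to −1.03. That of *Rnft1* moved from −1.23 to −0.65 without sgCbfa2t3 replicate 3, and that of *Ppm1h* from −1.06 to −0.51 without sgCbfa2t3 replicate 1. At the levels of these genes, 1.61 to 21.3 CPM, 1 read was worth 0.477 to 0.571 CPM.

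The position of sgControl was described for the called genes without a test, because the choice of the genes fixes that the conditions differ. The sgControl mean was nearer to sgCbfa2t2 in 10 of the 11 genes with an adjusted p under 0.05 and in 17 of the 23 DEGs, beside 51.4% of all genes tested. It lay between the conditions in 5 of the 11, among them *E2f2* and *Vegfa*, and in 16 of the 23.

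Gene lists were read from the same fit. In the ETO list 1 of 2 tested members (*Cbfa2t3*) and in the B-lineage list 1 of 12 (*Ly6d*) had an adjusted p under 0.05, beside 0.0956% of all genes, and none did in the other 14 lists. Median differences of the lists ran from −0.24 to 0.07 where more than 1 member was tested, beside −0.018 over all genes. Of the corepressor partners, 19 of 20 were tested with a median of 0.03. *Kdm1a*, a histone demethylase, had 80.2 to 99.5 CPM against 97.5 to 122 CPM (difference 0.26, limma adjusted p = 0.864), and *Prdm14* was at 0. In the Lmo2 complex, 15 of 17 were tested with a median of 0.03. *Lmo2* itself stood at 18.6 to 19.3 CPM in sgCbfa2t2 and 10.3 to 16.1 CPM in sgCbfa2t3 (difference −0.48, limma adjusted p = 0.901) and *Zbtb1* at 50.1 to 83.1 and 67.6 to 71.4 CPM (difference 0.20, limma adjusted p = 0.945). The member of this list with an unadjusted p under 0.05 was *Lmo4*, a LIM-only relative of *Lmo2*, which stood at 181, 256 and 278 CPM in sgCbfa2t2 and 261, 324 and 302 CPM in sgCbfa2t3. The conditions overlapped, and the difference of 0.33 (limma adjusted p = 0.613) was 0.14 without sgCbfa2t2 replicate 1. Leaving out 1 library brought the difference of *Kdm1a* down to 0.16, that of *Zbtb1* to 0.07 and that of *Lmo2* to −0.30.

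Of the 21 Notch pathway and early T genes, 15 were tested, with a median of −0.20. At an unadjusted p under 0.05, *Cd7*, *Thy1* and *Rbpj* (the DNA-binding effector of Notch) were on the lower side and *Hes1*, a Notch target, on the higher side, thus 3 and 1 of 15 beside 3.56% and 2.36% of all genes. *Cd7* stood at 5.85, 18.1 and 15.5 CPM in sgCbfa2t2 and 3.75, 6.28 and 2.22 CPM in sgCbfa2t3, which overlapped, and the difference of −1.43 had a limma adjusted p of 0.488. *Hes1* was near the limit of 3 reads, at a mean of 1.15 CPM in sgCbfa2t2 and 5.00 CPM in sgCbfa2t3.

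All 20 proliferation genes were tested, with a median of 0.07, and 3 had an unadjusted p under 0.05, each higher in sgCbfa2t3, beside 2.36% of all genes on the higher side. These were *Mki67*, a marker of cycling cells (difference 0.27), *Top2a*, a topoisomerase of mitotic cells (0.21) and *Ccne2*, a cyclin of S-phase entry (0.32), with limma adjusted p of 0.608, 0.613 and 0.798. The difference of *Mki67* was 0.17 without sgCbfa2t2 replicate 2. The summed level of the list was 5493 to 5877 CPM in sgCbfa2t2, 6106 to 6200 CPM in sgCbfa2t3 and 5522 to 5731 CPM in sgControl. The p53 targets summed to 973 to 1097 CPM in sgCbfa2t2, 1145 to 1180 CPM in sgCbfa2t3 and 1074 to 1110 CPM in sgControl. Of the 17 tested (median 0.03), 1 was higher and 1 lower at an unadjusted p under 0.05, beside 2.36% and 3.56% of all genes. The higher one was *Cdkn1a*, an inhibitor of the cell cycle, at 404 to 507 and 540 to 561 CPM (difference 0.26, limma adjusted p = 0.613), with a difference of 0.17 without sgCbfa2t2 replicate 1. The lower one was *Perp*, near the limit of 3 reads at 0.966 to 5.25 CPM in sgCbfa2t2 and 0 to 1.11 CPM in sgCbfa2t3 (difference −1.48, limma adjusted p = 0.777). The part of these shifts in the difference of *E2f2* was not tested.

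In the IL-7 and cytokine list all 20 were tested with a median of −0.10. At an unadjusted p under 0.05, 1 was on the higher side and 2 on the lower, beside 2.36% and 3.56% of all genes. *Flt3*, the Flt3L receptor, had the lowest unadjusted p (241 to 285 CPM against 193 to 253 CPM, difference −0.30, limma adjusted p = 0.640). *Pim2*, a kinase induced by cytokines, was the other on the lower side (119 to 208 CPM against 114 to 154 CPM, difference −0.33, limma adjusted p = 0.739), with a difference of −0.17 without sgCbfa2t2 replicate 2. *Socs3*, an inhibitor of cytokine signaling, was on the higher side (12.2 to 14.5 CPM against 17.1 to 25.7 CPM, difference 0.68, limma adjusted p = 0.776). *Il7r* had means of 134 and 139 CPM. The 7 tested Wnt and Tcf targets of 16 listed were all below 0 (median −0.24), and none had an unadjusted p under 0.05. The remaining lists (progenitor, interferon, amino acid response and glycolysis) had medians of −0.04, −0.10, 0.03 and −0.10. At an unadjusted p under 0.05 the progenitor list had 1 member on the lower side (*Flt3* again), the interferon and glycolysis lists had 1 on each side, and the amino acid list had 1 on the higher side.

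**Figure D4:**
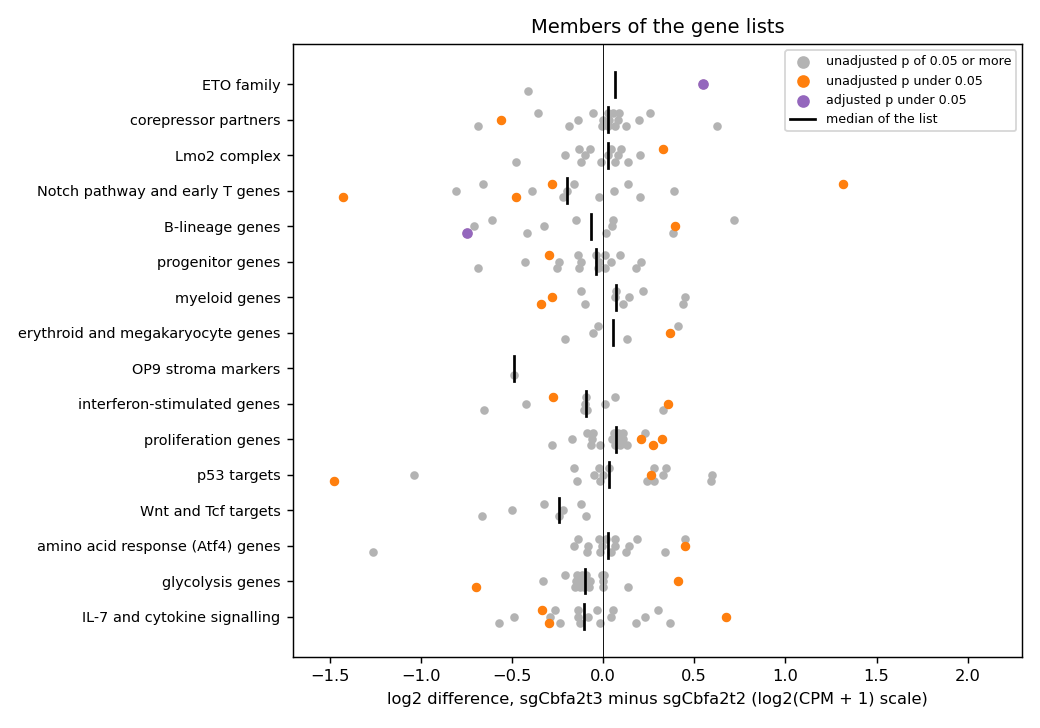
Log2 difference (sgCbfa2t3 minus sgCbfa2t2, log2(CPM + 1) scale) of each tested member of 16 gene lists, with vertical bars at list medians. The purple points are the only members with an adjusted p under 0.05, *Cbfa2t3* in the ETO family and *Ly6d* among B-lineage genes, and most members lie between −0.5 and 0.5.

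The labelled cell type was checked against markers. The progenitor genes *Flt3*, *Cd34* and *Il7r* were present in both conditions, and *Hlf*, *Mecom* and *Meis1* were at 0. The defining B-cell gene *Cd79a* and the pre-T gene *Ptcra* were at 0 in all 6 libraries, as were *Elane*, *S100a8* and *S100a9* of myeloid cells. Other genes of these lineages were present. The 20 B-lineage genes, 12 of them tested and 6 at 0, summed to 631 to 676 CPM in sgCbfa2t2 and 614 to 661 CPM in sgCbfa2t3. The T-lineage marker *Thy1* stood at 248 to 293 CPM in sgCbfa2t2 and 207 to 251 CPM in sgCbfa2t3. The 10 markers of OP9 stroma summed to 8.59 to 9.58 CPM in sgCbfa2t2 and 6.09 to 10.2 CPM in sgCbfa2t3, with 1 of 10 tested and *Col3a1*, *Dcn*, *Lum* and *Vcam1* at 0. The 20 myeloid genes, 11 of them tested, summed to 707 to 830 CPM and 664 to 735 CPM, with 696 to 791 CPM in sgControl and 6 of the 20 at 0. At an unadjusted p under 0.05, 2 of the 11 were lower in sgCbfa2t3 and none higher, beside 3.56% and 2.36% of all genes. These were the genes of signaling adaptors shared by myeloid and natural killer cells. *Tyrobp* stood at 172, 191 and 156 CPM in sgCbfa2t2 and 139, 146 and 124 CPM in sgCbfa2t3 (difference −0.34, limma adjusted p = 0.617). *Fcer1g* stood at 255, 347 and 315 CPM and 252, 254 and 243 CPM (difference −0.28, limma adjusted p = 0.640), and its difference was −0.18 without sgCbfa2t2 replicate 2. Both were thus present in all 6 libraries. Neither overlapped between the conditions, which also held for 10.8% of all genes tested. For *Fcer1g* the lowest sgCbfa2t2 value was 254.9 CPM and the highest sgCbfa2t3 value 254.1 CPM. Its sgControl mean of 269 CPM lay between the conditions, nearer to sgCbfa2t3. The 20 erythroid and megakaryocyte genes, 6 of them tested, summed to 869 to 902 CPM and 884 to 1008 CPM, with 881 to 942 CPM in sgControl and 9 at 0. At an unadjusted p under 0.05, 1 of the 6 was on the higher side and none on the lower. This was *Hbb-bt*, a β-globin gene, at 181, 153 and 163 CPM in sgCbfa2t2 and 277, 191 and 184 CPM in sgCbfa2t3, which did not overlap. Its difference of 0.37 (limma unadjusted p = 0.00369, adjusted p = 0.606) was 0.18 without sgCbfa2t3 replicate 1. The gene has a near-identical copy, so its count is uncertain.

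Of the 8329 genes with a mean above 10 CPM in either condition, 23.2% had a Cbfa2t3 peak assigned to them as nearest gene by the authors. Of the 11 genes with an adjusted p under 0.05 there were 6 (54.5%, Wilson 95% interval 28.0% to 78.7%), of which *E2f2*, *Cbfa2t3*, *Itga4* and *Vegfa* were higher and *Gsn* and *Jchain* lower. Of the 23 DEGs there were 9 (39.1%, Wilson 95% interval 22.2% to 59.2%). Both intervals are wide, and that of the DEGs includes the background. For Zbtb1 peaks the shares were 5 of 11 and 7 of 23, beside 31.2% of all genes above 10 CPM.

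The *Cbfa2t3* gene itself (chr8:122625141-122699109, − strand) had 10 Cbfa2t3 peaks, the strongest at chr8:122700574-122700952, 1.7 kb upstream of the start, with a score of 514.6 that ranked 8 of 6077. Within the gene, the peaks at chr8:122651441-122651819 and chr8:122665239-122665617 lay in the first intron with scores of 136.1 and 111.2. The strongest peak of *Jchain* had a score of 117.1, and that of *Vegfa* (score 79.3) was 13.5 kb upstream. *Gsn* had a peak at its start with a score of 47.7, and the peak of *Itga4*, 27.5 kb upstream, had a score of 27.8, below the median of 33.2. The ChIP-seq was done on cells without an sgRNA, so the peaks do not show what either sgRNA changed at these sites, and no Cbfa2t2 ChIP-seq was analysed here.

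**Figure D5:**
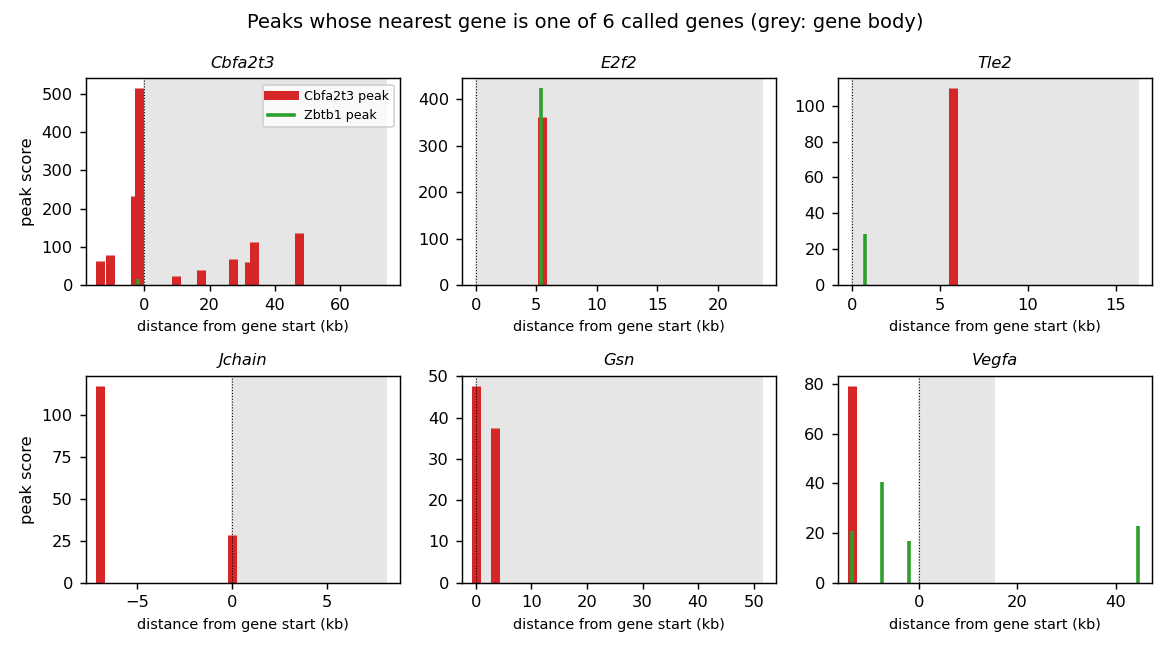
Score of each Cbfa2t3 (red, wide) and Zbtb1 (green, narrow) peak whose nearest gene is *Cbfa2t3*, *E2f2*, *Tle2*, *Jchain*, *Gsn* or *Vegfa*, against the distance from the gene start (kb, positive into the gene), with a separate scale per panel. *E2f2* has 1 peak of each factor at the same place, with scores of 360.6 and 423.2, and *Cbfa2t3* has 10 Cbfa2t3 peaks.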

How the data were processed

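The QuantSeq libraries and 2 replicates each of Cbfa2t3 and Zbtb1 ChIP-seq came from *Ebf1*-deficient LPs, and their labels gave the groups and replicate numbers. For QuantSeq the authors used fastp and STAR (mm10). Their deposited values, called TPM, are CPM, not divided by gene length, and whole reads were recovered for 100% of values (99.98% of those above 0, within 0.05 reads). A line without a gene identifier held under 0.0001% of reads and was left out. The authors aligned ChIP-seq reads with Bowtie 1.1.1 and deposited HOMER peaks reproducible in both replicates with a score and nearest gene, 6077 for Cbfa2t3 and 5898 for Zbtb1, with no per-replicate values used here.

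Genes with a mean above 1 CPM over the 6 libraries entered a limma fit (version 3.58.1, R 4.3.3, trended eBayes) of log2(CPM + 1), two-sided, with Benjamini-Hochberg adjustment over all genes. Folds of low genes are understated on this scale. The replicates are described as independent, all from 1 cell line. The limma p-values set each difference against a spread between replicates taken mostly from other genes of like level (64 prior against 4 residual degrees of freedom). DEGs used the study's thresholds with the limma p. Named genes were the ETO family, *Lmo2*, *Zbtb1* and *Ebf1*, up to 12 non-overlapping protein-coding DEGs per direction by p, each list's called and 2 lowest-p members, and all 11 genes with an adjusted p under 0.05. The members and lists were chosen with earlier results of these data known. Alternatives included edgeR 4.0.16 and DESeq2 1.42.0 on recovered reads. The steps were tested on simulated data. Gene positions are from GENCODE vM21, and intervals of shares cover counting only. The deviations of libraries with the same replicate number from their group means correlated at r of 0.017, 0.062 and 0.115 over 8121 genes, not all above 0.1, so the numbers were not taken as pairs. Some genes and sequences that the rules chose are not reported here.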

Additional observations from a re-analysis of the deposited data

How the results depend on the processing

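The DEG count of 23 became 41 with a pseudocount of 0.1, 10 with a mean above 10 CPM over the 6 libraries, and 42 to 52 without any one library. By edgeR it was 34, by DESeq2 33, with size factors 22 and by a test of unlogged values 18, 10 of them among the 23. The 11 genes with an adjusted p under 0.05 became 0 by the unlogged test (627 at an unadjusted p under 0.05), 7 by DESeq2 and 2 to 9 without any one library (2 without sgCbfa2t2 replicate 2, 4 without sgCbfa2t2 replicate 3 or sgCbfa2t3 replicate 1, and 7 without sgCbfa2t3 replicate 3). The cause was not tested. The called member of the ETO list became 0 by the unlogged test and ranged from 0 to 1 without any one library (0 without sgCbfa2t2 replicate 2). That of the B-lineage list became 0 by the unlogged test and by DESeq2, and ranged from 0 to 1 without any one library, with 1 only without sgCbfa2t3 replicate 2. With all 15 libraries in the fit 9 genes stayed called, without *Jchain* and *Tle6*, and with a robust spread, added after seeing the data, 10. No called gene changed sign under any alternative. The share of called genes near a Cbfa2t3 peak (45.2% of the 31 called by either rule) was 32.3% within 10 kb of a start and 32.3% with a score of at least 30, beside 14.2% and 14.1% of all genes above 10 CPM.

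Pairing by replicate number was tried as a block. It gave 13 genes with an adjusted p under 0.05, the 11 among them, and the same 23 DEGs, and each library correlated best with its own number except sgCbfa2t3 replicate 1. The libraries share only a number, as far as the sources say.

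At 3 reads, worth 1.43 to 1.71 CPM in these libraries, differences in genes below about 10 CPM rest on few reads.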

Other observations

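The other sgRNA conditions give a further view of the genes that separated sgCbfa2t2 from sgCbfa2t3, as values and without a test. *E2f2* stood at 53.6, 52.1 and 40.3 CPM in the sgZbtb1 libraries, and at 65.6, 80.2 and 77.8 CPM in the sgLmo2 libraries, all below the 143 to 153 CPM of sgCbfa2t3. *Tle6* (2.8 to 7.9 CPM) and *Cbfa2t3* (135 to 192 CPM) were likewise below their sgCbfa2t3 levels in every sgZbtb1 library. The genes that were lower in sgCbfa2t3 had another order. *Ly6d* stood at 27.9, 36.8 and 23.6 CPM in sgZbtb1, *Gsn* at 22.9 to 30.1 CPM, *S100a4* at 90.4 to 136 CPM, *H19* at 5.3 to 10.3 CPM and *Jchain* at 217 to 318 CPM. In each of these genes the sgZbtb1 libraries lay below the sgCbfa2t3 libraries, whereas for *Ifitm1*, at 951 to 1168 CPM, they lay above them. The share of all genes with such an order was not computed, so these are values only. *Itga4*, at 423 to 446 CPM in sgZbtb1, lay between sgCbfa2t2 and sgCbfa2t3. *Vegfa*, at 101, 125 and 89.8 CPM in the sgLmo2 libraries and 75.1 to 96.6 CPM in sgZbtb1, overlapped its 93.6 to 123 CPM of sgCbfa2t3 in both. In the sgLmo2 libraries *Ly6d* stood at 179 to 223 CPM and *Itga4* at 198 to 264 CPM, both on the side of sgControl. These genes were chosen by the comparison of sgCbfa2t2 with sgCbfa2t3, which uses none of the sgZbtb1 or sgLmo2 libraries.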
